A study of Homo sapiens with 12 samples.

Results

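Wild-type SH-SY5Y cells kept for 2 weeks in heavy SILAC medium were compared, gene by gene, with the same cells kept for 2 weeks in light SILAC medium. The comparison was fixed by the labels and used 6 of the 12 libraries of the series, 3 per medium. SH-SY5Y is an established human neuroblastoma line that resembles immature sympathetic neurons. The wild-type heavy cells received L-arginine and L-lysine as the isotopologues 13C6,15N4 and 13C6,15N2, and the wild-type light cells received both amino acids with ordinary isotopes. The other 6 libraries came from 3 independently made FMR1 knockout lines, each present once in heavy and once in light medium. The product of FMR1 is FMRP, which binds RNA and represses translation, and these lines were made to lack it. All 4 groups shared a DMEM:F-12 base for SILAC, GlutaMAX, sodium bicarbonate and dialyzed fetal bovine serum, and no group was grown in ordinary medium. The labels give the wild-type libraries only numbers, and nothing says that they came from separate cultures, so p-values measure the spread between these libraries, which may be technical. The labels do not say how many times each medium was prepared, and the isotopes and any other difference between the preparations cannot be told apart.

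In SILAC, cells build their proteins from the supplied arginine and lysine, so that proteins of differently labelled cultures can be told apart by mass and mixed before protein measurement. The method assumes that cells treat heavy and light amino acids alike. Cells short of an amino acid are known to raise ATF4, a transcription factor that activates amino acid carriers, synthesis enzymes and tRNA-charging enzymes, and to dampen mTORC1 signalling. Cells short of sterols raise SREBP-driven genes for cholesterol synthesis and uptake, and sterol excess lowers them. Bone morphogenetic proteins (BMPs) act through SMAD proteins to raise the ID genes, whose products block neuronal and other bHLH transcription factors, and BMPs are also known to set sympathetic neuron fate in the embryo.

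Heavy and light medium gave nearly the same transcriptome in wild-type cells. Of 15845 genes tested, 1 passed edgeR's quasi-likelihood test at an adjusted p of 0.05, which is 0.00631% of the genes, and that gene, ID2, was higher in heavy medium. An unadjusted p under 0.05 was reached by 808 genes (5.1%), 476 of them higher (3%) and 332 of them lower (2.1%) in heavy medium. That share is close to the 0.05 that this threshold gives by itself when no gene differs. The log2 fold change of heavy over light medium had a median of 0.00 over all genes, its middle 80% lay between -0.15 and 0.18, and 64.7% of genes were within 0.1 of 0. Among 12435 genes with a mean of at least 1 log2 CPM (CPM are counts scaled to library size by TMM), 4 differed by 1.5-fold or more: SAMD11, SGK1, ZNF703 and the clone-named gene AC006042.3, and each of them was higher in heavy medium.

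**Figure D1:**
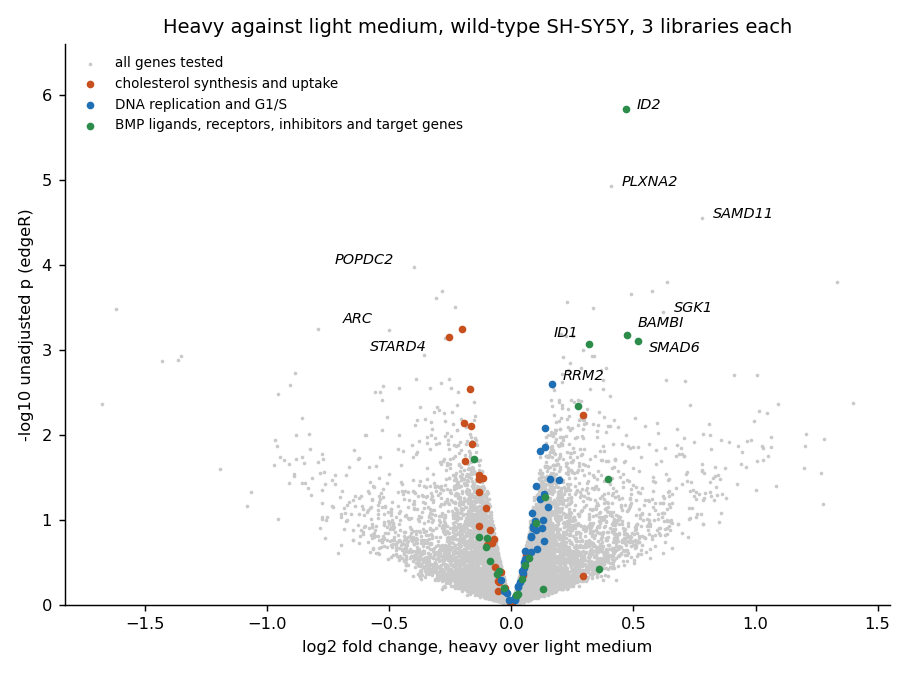
Each point is a gene tested in wild-type cells, with the log2 fold change of heavy over light medium on the x axis and the -log10 of the unadjusted edgeR p on the y axis (3 libraries per medium). ID2 stands above all other genes, members of the cholesterol list lie mostly left of 0 and members of the DNA replication list mostly right of 0, and no gene lies beyond a log2 fold change of 2.

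ID2, an inhibitor of neuronal bHLH factors (ENSG00000115738.9, chromosome 2, 8678845 to 8684453, plus strand, GRCh38), reached 245, 247 and 228 CPM in heavy medium, against 182, 182 and 156 CPM in light medium. The lowest heavy library lay above the highest light library. The difference was 0.47 on the log2 scale (SE 0.062, 95% interval 0.34 to 0.60, edgeR adjusted p = 0.0235). The call depended on single libraries: the adjusted p was 0.335 without heavy library 2, 0.126 without light library 1, 0.0548 without light library 2 and 0.208 without light library 3, while the log2 fold change stayed between 0.39 and 0.51 over the 6 fits that each left out 1 library. With 1 spread estimated from all 12 libraries, knockout lines included, the adjusted p of ID2 was 1 and the unadjusted p 0.0965. In the knockout lines ID2 had 154, 115 and 265 CPM in heavy medium, against 132, 130.03 and 166 CPM in light medium, so that lines 1 and 3 were higher in heavy medium and line 2 was not. The knockout difference was 0.24 (edgeR unadjusted p = 0.283), and the test of wild type against knockout for the medium effect gave an unadjusted p of 0.693 and an adjusted p of 1.

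Because ID2 was the gene that passed, the genes around it in the BMP pathway were listed after its value had been seen, and their counts are a description. Of 24 tested genes for BMP ligands, receptors, inhibitors and targets, 6 were higher (25%) and 1 was lower (4.17%) at an unadjusted p under 0.05, against 3% higher and 2.1% lower over all genes. With no overlap between media, 7 were higher (29.2%) and 3 lower (12.5%), against 5.82% higher and 5.41% lower over all genes. With 1 spread estimated from all 12 libraries, 1 was higher and 0 were lower at an unadjusted p under 0.05, and the shares of all genes were then 0.934% higher and 0.629% lower. The list had a median log2 fold change of 0.05, against 0.00 over all genes. All 6 higher genes were targets of BMP signalling, while ligands and receptors did not share that direction.

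Among the targets, ID1, a second inhibitor of bHLH factors, had 69.3, 68.5 and 70.3 CPM in heavy medium, against 58.8, 60.1 and 47.6 CPM in light medium (log2 fold change 0.32, SE 0.0772). ID3, of the same family, had 72.6, 75.3 and 79.8 CPM in heavy medium, against 64.2, 70.3 and 53.9 CPM in light medium (log2 fold change 0.27, SE 0.0814). Neither ID1 nor ID3 overlapped between media, and neither passed edgeR's adjustment (adjusted p = 0.517 for ID1 and 0.865 for ID3). ID4 was scarce, at 2.95, 2.42 and 2.16 CPM in heavy medium, against 1.86, 1.91 and 1.91 CPM in light medium, and also did not overlap (log2 fold change 0.40, edgeR unadjusted p = 0.0332).

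SMAD6, an inhibitory SMAD that BMP signalling induces as its own brake, had 5.39, 5.94 and 5.71 CPM in heavy medium, against 3.66, 4.52 and 3.63 CPM in light medium. BAMBI, a decoy receptor also induced by BMPs, had 22.4, 21.3 and 20.1 CPM in heavy medium, against 15.9, 17.7 and 12.1 CPM in light medium. The log2 fold changes were 0.52 (SE 0.125) for SMAD6 and 0.47 (SE 0.111) for BAMBI, and in both genes the heavy libraries lay above all light ones. SMAD7, a broader inhibitory SMAD, was higher by 0.14 (95% interval 0.00 to 0.28, edgeR unadjusted p = 0.0539).

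The ligand BMP7 lay on the other side, at 56.9, 60.4 and 62.5 CPM in heavy medium, against 67.4, 67 and 65.8 CPM in light medium (log2 fold change -0.15, edgeR unadjusted p = 0.0193). The type I receptor gene BMPR1B and the signal-carrying SMAD1 were lower in heavy medium without overlap, at log2 fold changes of -0.10 for BMPR1B (edgeR unadjusted p = 0.163) and -0.13 for SMAD1 (edgeR unadjusted p = 0.16). The type II receptor gene BMPR2 differed by -0.09 and the shared SMAD4 by 0.04, each with overlapping media.

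The same target genes scattered between the knockout lines. ID1 had 55, 49.97 and 81.5 CPM in heavy medium, against 71.4, 62.6 and 52.8 CPM in light medium, in lines 1, 2 and 3, so 1 of 3 lines was higher in heavy medium. BAMBI had 11.4, 5.56 and 19.9 CPM in heavy medium, against 4.8, 6.25 and 16.9 CPM in light medium, higher in heavy medium in lines 1 and 3. ID4 was higher in heavy medium in all 3 lines, at 0.935, 0.534 and 1.16 CPM in heavy medium, against 0.226, 0.307 and 0.561 CPM in light medium (log2 fold change 1.29, edgeR unadjusted p = 0.0038). None of these genes passed the test of the difference between wild type and knockout in medium effect (edgeR unadjusted p between 0.0859 for ID4 and 0.911 for BAMBI).

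**Figure D2:**
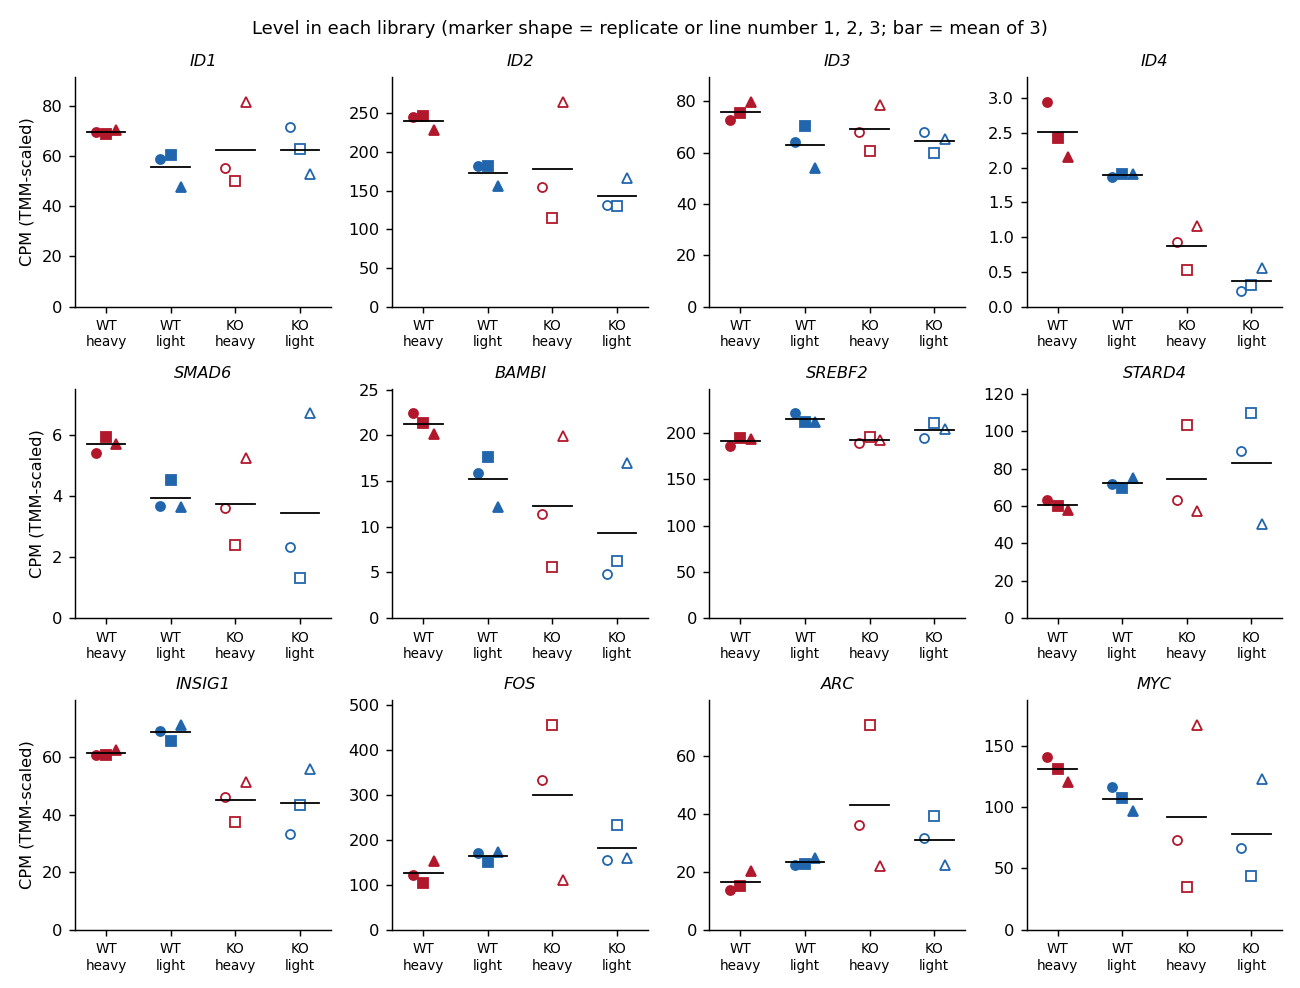
Each panel gives a gene's level in CPM in every library, with the 3 heavy and 3 light libraries of wild-type cells (filled) left of those of the knockout lines (open); marker shape is the replicate or line number and the bar is the mean of 3. In wild-type cells ID2 lies between 228 and 247 CPM in heavy medium and between 156 and 182 CPM in light medium, while the knockout lines span 115 to 265 CPM over both media.

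The promoters of ID2, the gene that passed, and of BAMBI are shown because both belong to the BMP target group, and that of SREBF2 because it belongs to the sterol group described further on. They are RefSeq sequences on GRCh38.p14, 5′ to 3′, from 250 bases before to 50 after the annotated start: ID2 at chr2:8681806-8682105, BAMBI at chr10:28677271-28677570 and SREBF2 at chr22:41832855-41833154, all on the plus strand. Capitals mark GGCGCC, a GC-rich element that SMADs can bind, in BAMBI, and TCACNCCAC, a sterol regulatory element bound by SREBPs, in SREBF2; both motifs were searched on both strands.
ID2: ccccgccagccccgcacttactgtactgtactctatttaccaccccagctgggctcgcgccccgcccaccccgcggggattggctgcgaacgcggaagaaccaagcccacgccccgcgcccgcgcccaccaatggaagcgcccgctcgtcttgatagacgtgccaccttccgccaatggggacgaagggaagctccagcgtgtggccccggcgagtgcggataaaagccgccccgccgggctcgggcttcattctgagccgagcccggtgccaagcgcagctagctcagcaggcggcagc
BAMBI: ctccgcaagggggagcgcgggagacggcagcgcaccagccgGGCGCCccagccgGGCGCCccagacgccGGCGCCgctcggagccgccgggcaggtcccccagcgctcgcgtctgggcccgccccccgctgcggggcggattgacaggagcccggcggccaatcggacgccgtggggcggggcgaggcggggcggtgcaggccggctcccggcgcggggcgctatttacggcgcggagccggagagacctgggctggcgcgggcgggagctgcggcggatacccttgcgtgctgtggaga
SREBF2: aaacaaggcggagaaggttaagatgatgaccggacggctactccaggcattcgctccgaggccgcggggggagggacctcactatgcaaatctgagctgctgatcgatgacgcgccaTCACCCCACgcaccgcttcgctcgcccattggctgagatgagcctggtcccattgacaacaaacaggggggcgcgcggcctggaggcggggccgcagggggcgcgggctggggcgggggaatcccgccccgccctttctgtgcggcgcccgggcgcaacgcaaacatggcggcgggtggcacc
BAMBI held 3 copies of GGCGCC and the ID2 window held none. GGCGCC was found in 7 of 21 promoters of the BMP list (33.3%) and in 19.2% of all 35116 promoters. Apart from BAMBI, the matches lay in ACVR1, BMPR2, CHRD, SKIL, SMAD4 and SMAD5. The log2 fold changes of these genes were between -0.10 and 0.13 (edgeR unadjusted p of at least 0.208), so the share does not describe the targets that were higher. The TCACNCCAC element of SREBF2 began 133 bases before the start, and SREBF2 was the 1 of 23 cholesterol promoters with a match (4.35%), against 1.13% of all promoters. In the fatty acid synthesis list, also described further on, 0 of 22 promoters had a match.

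Genes of cholesterol synthesis and uptake were slightly lower in heavy medium. Of 30 tested, 5 had a log2 fold change above 0 (against 50.2% of all genes), 11 were lower and 1 higher at an unadjusted p under 0.05 (36.7% lower, against 2.1% of all genes), and 0 passed the adjustment. The list's median log2 fold change was -0.08, against 0.00 over all genes. This direction was known from earlier results of the same libraries and is not independent of them. Per library, the median of the list's mean-centred log2 CPM was -0.08, -0.04 and -0.05 in heavy medium, against 0.08, 0.02 and 0.04 in light medium. All 3 heavy libraries thus lay below all 3 light libraries.

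STARD4, a carrier of cholesterol between membranes, had 63.5, 59.9 and 58.2 CPM in heavy medium, against 71.7, 69.6 and 75.2 CPM in light medium, without overlap (log2 fold change -0.25, SE 0.0602, edgeR adjusted p = 0.475). DHCR7, the enzyme of the final step, differed by -0.17, with 90.3, 98.5 and 99.1 CPM in heavy medium, against 109, 108 and 106 CPM in light medium.

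The regulators lay on the same side. SREBF2, which encodes the SREBP that drives these genes, had 186, 195 and 193 CPM in heavy medium, against 221, 212 and 212 CPM in light medium (log2 fold change -0.17, SE 0.0479). INSIG1, the sterol-regulated anchor that holds SREBPs in the endoplasmic reticulum, had 60.6, 60.6 and 62.4 CPM in heavy medium, against 69, 65.6 and 71.2 CPM in light medium (log2 fold change -0.16). MYLIP, a sterol-induced ubiquitin ligase, was the 1 member higher at an unadjusted p under 0.05, at 20.8, 21.3 and 21.1 CPM in heavy medium, against 14.8, 17.4 and 19.5 CPM in light medium (log2 fold change 0.29). In all of these genes the 2 media did not overlap. SQLE, the epoxidase, differed by -0.08 with overlapping media.

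The count of 11 lower genes was 7 without heavy library 2 and 6 without light library 1, while the shares of all genes lower were then 1.45% and 1.4%. With 1 spread estimated from all 12 libraries the count was 3, against 0.629% of all genes lower. The list median stayed between -0.11 and -0.06 over all fits that left out 1 library. Of the same 30 genes in the knockout lines, 1 was higher and 1 lower at an unadjusted p under 0.05 (against 1.94% higher and 0.882% lower over all genes there), and the median was -0.02. The lines differed: the median of heavy minus light was 0.09 in line 1, -0.13 in line 2 and -0.05 in line 3.

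Fatty acid synthesis genes, which SREBPs also drive, had nearly the same median, -0.08, with 20 of 24 below 0 (83.3%, against 49.8% of all genes). SCD, which desaturates fatty acids, had 796, 770.4 and 731 CPM in heavy medium, against 886, 828 and 878 CPM in light medium, and FADS2, a desaturase of polyunsaturated fatty acids, had 426, 469 and 451 CPM in heavy medium, against 516, 504 and 469 CPM in light medium. SCD and FADS2 were the 2 members at an unadjusted p under 0.05 (log2 fold changes -0.17 and -0.15), both without overlap. They made up 8.33% of the list, against 2.1% of all genes lower. Of the 24 genes in the knockout lines, 1 was higher and 1 lower at an unadjusted p under 0.05, with a median of -0.003. The shares of all genes there were 1.94% higher and 0.882% lower. FASN, the fatty acid synthase, differed by -0.12 and SREBF1, the other SREBP gene, by -0.14, with overlapping media. Among 29 lysosome and autophagy genes, 23 were below 0 (79.3%, against 49.8% of all genes), with NPC2, a cholesterol carrier, at -0.20 (edgeR unadjusted p = 0.0326). The centred median of this list was -0.089, 0.015 and 0.016 in heavy medium, against 0.020, 0.050 and 0.008 in light medium, which overlapped. Its median log2 fold change was -0.05 and ran from -0.0911 to -0.0122 over the fits that left out 1 library. In the knockout lines the median was -0.01.

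Genes of DNA replication and entry into S phase were slightly higher in heavy medium. Of 41 tested, 36 had a log2 fold change above 0 (87.8%, against 50.2% of all genes). At an unadjusted p under 0.05, 8 were higher and 0 lower (19.5% higher, against 3% of all genes), and 0 passed the adjustment. The median was 0.08. RRM2, the regulated subunit of ribonucleotide reductase, had 311, 308 and 297 CPM in heavy medium, against 266, 275 and 276 CPM in light medium (log2 fold change 0.17, SE 0.0462). PCNA, the sliding clamp of DNA polymerases, had 338, 355 and 358 CPM in heavy medium, against 321, 319 and 316 CPM in light medium (log2 fold change 0.14), and MCM3, of the replicative helicase, had 427, 437 and 428 CPM in heavy medium, against 396, 397 and 396 CPM in light medium (log2 fold change 0.12). None of these 3 genes overlapped between media, and each difference was under 1.25-fold. Other helicase genes were closer to 0, with MCM2 at -0.02 and MCM5 at 0.08.

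The count of 8 replication genes was 13 without heavy library 1, 3 without heavy library 2, 5 without light library 1 and 4 without light library 3. The count over all genes also rose without heavy library 1 and fell without light library 1, as given further on. These moves can therefore not be read as particular to the list. The counts without heavy library 2 and without light library 3 stand without a share of all genes, so nothing is read from them. The list median stayed between 0.06 and 0.08 over the 6 fits that left out 1 library. With 1 spread estimated from all 12 libraries the count of replication genes was 1, against 0.934% of all genes higher. The centred list median was 0.03, 0.06 and 0.03 in heavy medium, against -0.04, -0.02 and -0.04 in light medium. Mitosis and G2/M genes did not share the direction: 17 of 34 were above 0, 0 had an unadjusted p under 0.05 in either direction, and the median was 0.00. The replication list had a median of 0.06 in the knockout lines, at 0.16 in line 1, -0.03 in line 2 and 0.08 in line 3.

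**Figure D3:**
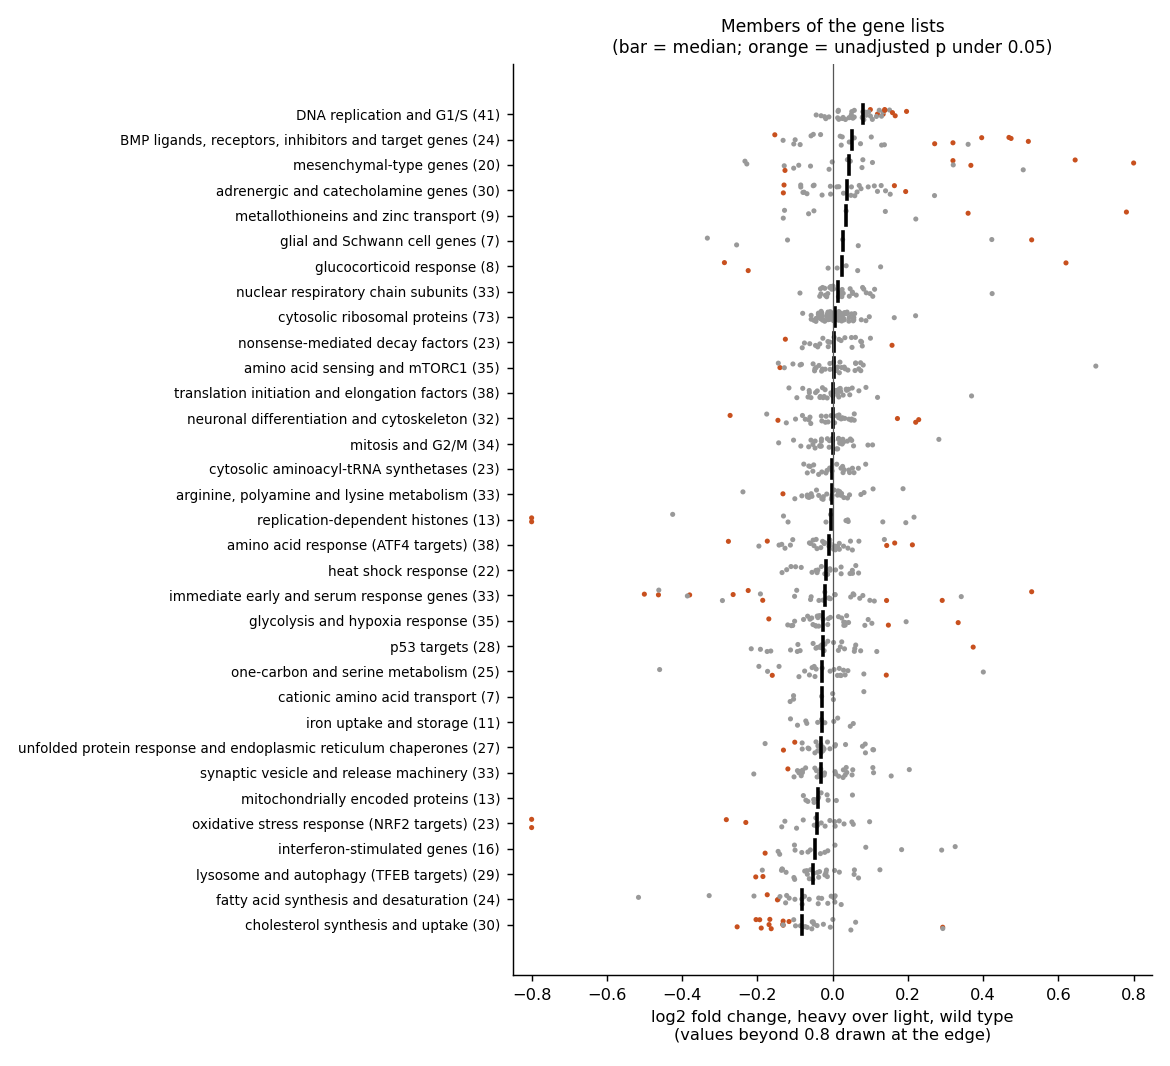
Each row is a gene list with at least 7 tested members (number in brackets), each point a member's log2 fold change of heavy over light medium in wild-type cells, orange where the unadjusted edgeR p is under 0.05, and the bar is the list's median. Medians lie between -0.08 for the cholesterol list and 0.08 for the DNA replication list.

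Carriers of arginine and lysine, the amino acids that differed between the media, were near equal. All 7 tested genes for cationic amino acid transport had a 95% interval inside 1.25-fold, and 0 had an unadjusted p under 0.05. With no overlap between media, 2 were lower (28.6%, against 5.41% of all genes) and 0 higher (against 5.82% of all genes). The 2 were SLC7A1 and SLC25A15, the latter at a log2 fold change of -0.11 (edgeR unadjusted p = 0.0895). SLC7A1, the main carrier of arginine and lysine in most cells, had 196, 191 and 179.9 CPM in heavy medium, against 205, 198 and 206 CPM in light medium. Its heavy libraries lay below the light ones, at a log2 fold change of -0.10 (95% interval -0.21 to 0.00, edgeR unadjusted p = 0.0547). SLC7A2, a related carrier, had 16.5, 13.7 and 12.9 CPM in heavy medium, against 15.9, 13.9 and 16.4 CPM in light medium, which overlapped (log2 fold change -0.10). In the knockout lines SLC7A2 was higher in heavy medium in all 3 lines, by 0.45 (edgeR unadjusted p = 0.0051), and the test of the difference between the genotypes gave an unadjusted p of 0.251. SLC7A3 had between 2 and 8 reads per wild-type library and was not tested. SLC3A2, the heavy chain shared by several carriers, and SLC7A6, which exchanges cationic for neutral amino acids, each differed by 0.00.

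Enzymes that use arginine and lysine were also close to equal. Of 33 genes for arginine, polyamine and lysine metabolism, 26 had a 95% interval inside 1.25-fold. DDAH1, which breaks down methylated arginine, was the 1 with an unadjusted p under 0.05 (log2 fold change -0.13), or 3.03%, against 2.1% of all genes lower. ODC1, which makes the polyamine putrescine from ornithine, had 375, 382 and 381 CPM in heavy medium, against 371, 377 and 375 CPM in light medium. OAT, which turns ornithine towards proline and glutamate, had 81.3, 80.6 and 78.1 CPM in heavy medium, against 80.3, 77.8 and 79.4 CPM in light medium. The log2 fold changes were 0.02 for ODC1 (95% interval -0.07 to 0.11) and 0.02 for OAT (95% interval -0.10 to 0.13). AASS, which begins lysine breakdown, had about 1 CPM, and its interval of -0.41 to 0.56 was too wide to bound a change at this depth.

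The amino acid response showed no shared direction. Of 38 genes that ATF4 is known to activate, 3 were higher (7.89%) and 2 lower (5.26%) at an unadjusted p under 0.05, against 3% higher and 2.1% lower over all genes, and the median was -0.01. With no overlap between media, 2 were higher (5.26%, against 5.82% of all genes) and 6 lower (15.8%, against 5.41% of all genes). ATF4 mRNA was at 222, 253 and 267 CPM in heavy medium, against 244, 253 and 249.98 CPM in light medium (log2 fold change -0.01, 95% interval -0.14 to 0.12). ASNS, which makes asparagine and is a standard reporter of this response, had 4.14, 4.59 and 5.24 CPM in heavy medium, against 4.18, 4.75 and 4.38 CPM in light medium, and DDIT3, a stress transcription factor, had 15.3, 17.3 and 21.3 CPM in heavy medium, against 14.3, 19.1 and 18.6 CPM in light medium. Both genes overlapped between media, and the log2 fold changes of ATF4, ASNS and DDIT3 changed sign in some fits without 1 library. CHAC1, which degrades glutathione, was lower without overlap, at 15.3, 18.7 and 18.2 CPM in heavy medium, against 21.8, 21.3 and 20.1 CPM in light medium (log2 fold change -0.28, edgeR adjusted p = 0.906). It was also lower in heavy medium in all 3 knockout lines (log2 fold change -0.22, edgeR unadjusted p = 0.0445). CEBPG and ATF5, transcription factors of the same response, were on the other side, at 0.14 and 0.21.

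Genes of the translation machinery were near equal between the media. All 23 cytosolic aminoacyl-tRNA synthetase genes had a 95% interval inside 1.25-fold, and 0 had an unadjusted p under 0.05. KARS, which charges lysine onto its tRNA, had 299.6, 310.4 and 307 CPM in heavy medium, against 322, 309 and 305 CPM in light medium, and RARS, which charges arginine, had 139, 132 and 131 CPM in heavy medium, against 134, 129.9 and 139 CPM in light medium. The intervals were -0.13 to 0.07 for KARS and -0.11 to 0.11 for RARS on the log2 scale. Of 73 cytosolic ribosomal protein genes, 70 lay inside 1.25-fold, as did 32 of 35 genes of amino acid sensing and mTORC1, 36 of 38 translation factors and all 23 nonsense-mediated decay factors. Ribosomal protein genes include near-identical pseudogene copies, so reads may have been split between them. All 13 mitochondrially encoded protein genes were inside 1.25-fold, and the mitochondrial share of counts was 9.53% to 10.5% in heavy medium, against 10.1% to 10.5% in light medium.

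FMR1, the gene knocked out in the other lines, was present in all wild-type libraries, at 42.1, 37.4 and 36.1 CPM in heavy medium, against 37.3, 36.6 and 37.3 CPM in light medium (log2 fold change 0.05, 95% interval -0.09 to 0.20). The knockout lines had 22.5, 12.8 and 7.14 CPM in heavy medium, against 11.4, 11.4 and 9.08 CPM in light medium, below every wild-type library. Its paralogs FXR1 and FXR2 differed between media by 0.02 and -0.05 in wild-type cells.

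Immediate early genes, which serum and growth factors switch on within minutes, did not share a direction and varied between libraries. Of 33 tested, 3 were higher (9.09%) and 6 lower (18.2%) at an unadjusted p under 0.05, against 3% higher and 2.1% lower over all genes. ARC, a neuronal activity gene, had 13.9, 15 and 20.3 CPM in heavy medium, against 22.4, 22.6 and 24.9 CPM in light medium, without overlap (log2 fold change -0.50, edgeR adjusted p = 0.475). FOS, a subunit of AP-1, had 122, 103 and 153 CPM in heavy medium, against 170.4, 149.9 and 172 CPM in light medium (log2 fold change -0.38), and heavy library 3 lay inside the light range. MYC, a growth-promoting transcription factor, was on the other side without overlap, at 140.4, 131 and 120.4 CPM in heavy medium, against 117, 107 and 96.4 CPM in light medium (log2 fold change 0.29, edgeR adjusted p = 0.596).

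EGR1, a zinc finger factor of the same class, was among the 5 genes with the widest spread within groups of those with a mean of at least 5 log2 CPM, at 236, 331 and 393 CPM in heavy medium, against 318, 436 and 501 CPM in light medium. The difference of -0.39 had a 95% interval of -1.08 to 0.31. JUN, the partner of FOS in AP-1, AMH, which encodes anti-Müllerian hormone, and the nuclear RNAs NEAT1 and MALAT1 were the others, each with overlapping media. EGR1, JUN, NEAT1 and MALAT1 rose from library 1 to library 3 in both media, and AMH did so in heavy medium only. With the replicate number as a block, the EGR1 difference was -0.39 (edgeR adjusted p = 0.000862). The numbers are not shown to pair wild-type libraries, and the cause of the shared order was not tested. The count of 6 lower immediate early genes was 3 without heavy library 1 and 10 without heavy library 3, the libraries with the lowest and the highest EGR1 in heavy medium. Over all genes, the count in both directions together rose without heavy library 1, as given further on. The share of all genes lower in these fits is not given here, so the list's moves cannot be set against it. The list lay on the other side in the knockout lines, with 10 of 33 higher and 1 lower at an unadjusted p under 0.05 (against 1.94% higher and 0.882% lower over all genes there) and a median of 0.19, against -0.02 in wild-type cells. DUSP1, a phosphatase that ends MAP kinase signalling, differed by -0.22 in wild-type cells and 0.34 in the knockout lines, and the test of that difference gave an edgeR unadjusted p of 0.00787 and an adjusted p of 1.

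The remaining genes with the smallest p among those higher in heavy medium did not pass the adjustment. PLXNA2, a semaphorin receptor in axon guidance, had 52.2, 54.7 and 51 CPM in heavy medium, against 41, 40.7 and 37.3 CPM in light medium (log2 fold change 0.41, edgeR adjusted p = 0.0943). SAMD11, a transcriptional regulator, had 13.4, 18 and 18.6 CPM in heavy medium, against 9.18, 11.5 and 8.34 CPM in light medium (log2 fold change 0.78, edgeR adjusted p = 0.149). Both were nearer to 0 in the knockout lines, where the log2 fold changes were 0.01 for PLXNA2 and 0.11 for SAMD11. DUSP10, a phosphatase of stress kinases, and SGK1, a kinase induced by serum and glucocorticoids, differed by 0.49 and 0.62. Of 8 tested genes of a glucocorticoid list made after SGK1 had been seen, 1 was higher (12.5%, against 3% of all genes) and 2 were lower (25%, against 2.1% of all genes) at an unadjusted p under 0.05, and FKBP5, a common reporter of glucocorticoids, was at 0.01.

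ADM, a vasodilator peptide that hypoxia induces, had 26.8, 25.3 and 26.3 CPM in heavy medium, against 22, 20.1 and 20.2 CPM in light medium (log2 fold change 0.33), and was also higher in all 3 knockout lines in heavy medium, at 16.3, 9.95 and 25.9 CPM in heavy medium, against 8.41, 6.9 and 24.3 CPM in light medium (log2 fold change 0.51, edgeR unadjusted p = 0.00833). Of 35 tested genes of glycolysis and the hypoxia response, ADM among them, 2 were higher (5.71%) and 1 was lower (2.86%) at an unadjusted p under 0.05, against 3% higher and 2.1% lower over all genes, and the median was -0.03. PFKFB3, a regulator of glycolysis and the other higher member, had 54.2, 55.5 and 52.1 CPM in heavy medium, against 49.5, 47.9 and 48.5 CPM in light medium, without overlap (log2 fold change 0.15, edgeR adjusted p = 0.961). VEGFA, the vascular growth factor, was at 0.02 and PGK1, a glycolytic enzyme, at -0.04. NEFM, a neurofilament subunit, had 254, 251 and 235 CPM in heavy medium, against 214, 207 and 211 CPM in light medium, and SOX11, a transcription factor of young neurons, had 531, 502 and 481 CPM in heavy medium, against 440.1, 441 and 433 CPM in light medium. These 2 neuronal genes differed by 0.23 and 0.20 without overlap, whereas MAPT, which encodes tau, was lower, at 32.1, 33.1 and 33.9 CPM in heavy medium, against 39.6, 38.5 and 41.7 CPM in light medium (log2 fold change -0.27). Over 32 genes of neuronal differentiation and the cytoskeleton, 3 were higher (9.38%, against 3% of all genes) and 2 lower (6.25%, against 2.1% of all genes) at an unadjusted p under 0.05, with a median of 0.00.

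Among genes lower in heavy medium, POPDC2, a membrane protein of the Popeye family, had 18, 18.7 and 19.96 CPM in heavy medium, against 26.2, 23.3 and 25.4 CPM in light medium (log2 fold change -0.40, edgeR adjusted p = 0.375). In all 3 knockout lines it was higher in heavy medium (log2 fold change 0.28), and the test of the difference gave an edgeR unadjusted p of 0.0809. TXNIP, an inhibitor of thioredoxin that follows glucose supply, had 45.1, 47.2 and 46.5 CPM in heavy medium, against 55.9, 55.9 and 57 CPM in light medium (log2 fold change -0.28). MYADM, a membrane protein, had 59.1, 64.2 and 70.3 CPM in heavy medium, against 79.3, 80.7 and 79.9 CPM in light medium (log2 fold change -0.31). In the knockout lines the direction of both genes differed from line to line. TXNIP had 61.7, 85.2 and 52.4 CPM in heavy medium, against 57.8, 70.8 and 64 CPM in light medium, in lines 1, 2 and 3 (log2 fold change 0.03), and MYADM had 84.3, 86.6 and 62.7 CPM in heavy medium, against 72.6, 78.3 and 74.5 CPM in light medium (log2 fold change 0.04). Each gene was higher in heavy medium in lines 1 and 2 and lower in line 3. RIMS3, a presynaptic protein, had 131, 132 and 127 CPM in heavy medium, against 157, 148 and 152 CPM in light medium (log2 fold change -0.23), and was lower in heavy medium in all 3 knockout lines too (log2 fold change -0.16, edgeR unadjusted p = 0.0282). SPTB, a spectrin, and VSNL1, a neuronal calcium sensor, had log2 fold changes of -0.36 and -0.26, also without overlap.

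The 10 higher and 10 lower genes with the smallest p among those with a mean of at least 1 log2 CPM, clone-named genes passed over, include ID2, BAMBI, STARD4 and ARC. They were taken by their p, so their lack of overlap between media follows from the choice. In the knockout lines 9 of the 10 higher genes and 5 of the 10 lower genes had the same sign. Over all 15593 genes tested in both genotypes, 9034 (57.9%) had the same sign, and Pearson's r of the log2 fold changes was 0.14 (Spearman's rho 0.19) across genes, which are not independent replicates. Of 792 genes at an unadjusted p under 0.05 in wild-type cells, 566 (71.5%) had the same sign in the knockout lines and 76 also had an unadjusted p under 0.05 there. The knockout comparison gave 0 of 16206 genes past the adjustment and 457 (2.82%) at an unadjusted p under 0.05. The test of the difference between the genotypes in medium effect gave 0 of 16704 genes past the adjustment and 149 (0.892%) at an unadjusted p under 0.05. No medium effect was thus shown to be particular to wild-type cells. This test did not use line as a block, so differences between the knockout lines entered its spread. Its p-values, here and above, can therefore miss a difference between the genotypes.

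Markers placed both cultures with adrenergic neuroblastoma cells. Of 8 adrenergic markers, 7 were above 1 CPM in every wild-type library, the exception being TH, tyrosine hydroxylase, at 0.461 to 0.849 CPM. Their sum was 6191 to 6417 CPM in heavy medium, against 6315 to 6792 CPM in light medium. DBH, the enzyme that makes noradrenaline, differed by -0.13. Of 6 mesenchymal-type markers, 3 were above 1 CPM, PRRX1 was at 0 in every library, and the sum was 391.6 to 400.2 CPM in heavy medium, against 375 to 377.5 CPM in light medium. Most of that sum was TWIST1, a bHLH transcription factor, which differed by 0.08, while FN1, fibronectin, differed by 0.00. In the longer list of mesenchymal-type genes, 4 of 20 tested were higher (20%, against 3% of all genes) and 1 was lower (5%, against 2.1% of all genes) at an unadjusted p under 0.05, 6 were higher without overlap (30%, against 5.82% of all genes), and the median was 0.04. The 4 were ID1, which also stands in the BMP list, SNAI2, a transcriptional repressor (log2 fold change 0.37), and the collagen genes COL3A1 and COL1A2, both under 2 CPM in every wild-type library (log2 fold changes 1.09 and 0.64); THY1, a surface glycoprotein, was the lower one (-0.13). None of these 5 genes passed edgeR's adjustment (adjusted p between 0.517 for ID1 and 0.961 for THY1). With 1 spread estimated from all 12 libraries, 0 of 21 were higher and 1 was lower. The part of a mesenchymal fraction in the values of the BMP targets was not tested.

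Markers of other cell types were at or near 0. All 4 blood markers were at 0 in every library, as was SOX10 of Schwann cells, and so were DCN of fibroblasts and KRT5 and KRT14 of epithelium. Endothelial markers summed to at most 0.0323 CPM in heavy medium and 0.0746 CPM in light medium. PDGFRA and PDGFRB, growth factor receptors in the fibroblast set, were expressed, and that set summed to 170.5 to 172.4 CPM in heavy medium, against 173.8 to 184 CPM in light medium. Fewer cells of a type and less RNA per cell cannot be told apart in bulk RNA.

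How small a medium effect could have been seen depended on a gene's level. The 95% interval of the fold change lay inside 1.25-fold for 9638 genes (60.8%), inside 1.5-fold for 12626 genes (79.7%) and inside 2-fold for 14822 genes (93.5%). Among 6057 genes with a mean of at least 5 log2 CPM, 5909 (97.6%) were inside 1.25-fold. Among 3410 genes with a mean under 1 log2 CPM, 0 were inside 1.25-fold and 516 (15.1%) were inside 1.5-fold. Low genes with large estimates, such as OSGIN1, an NRF2 target at 0.271, 0.258 and 0.28 CPM in heavy medium, against 0.49, 0.671 and 0.956 CPM in light medium, therefore had wide intervals (log2 fold change -1.37, 95% interval -2.11 to -0.62). HMOX1, heme oxygenase and also an NRF2 target, had 0.407, 0.905 and 0.756 CPM in heavy medium, against 1.27, 1.09 and 1.45 CPM in light medium (log2 fold change -0.86). Of 23 genes in the NRF2 list, 4 (17.4%, against 2.1% of all genes) were lower at an unadjusted p under 0.05. The 4 include OSGIN1 and HMOX1, both under 1.5 CPM in every wild-type library. TXNIP, described above as following glucose supply, is also among them, so the share is not a measure of NRF2 activity. Of 9 tested genes of metallothioneins and zinc transport, 5 had a log2 fold change above 0, 2 were higher (22.2%, against 3% of all genes) and 0 lower at an unadjusted p under 0.05, and the median was 0.04. SLC30A1, a zinc exporter, had 32.8, 25.5 and 23.6 CPM in heavy medium, against 23.8, 19.6 and 20.5 CPM in light medium, and the media overlapped (log2 fold change 0.36, edgeR adjusted p = 0.906). MT1F, a metallothionein, was under 1 CPM in every wild-type library (log2 fold change 0.78, 95% interval 0.11 to 1.45, edgeR adjusted p = 0.961), and SLC39A10, a zinc importer, was at -0.13.

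**Figure D4:**
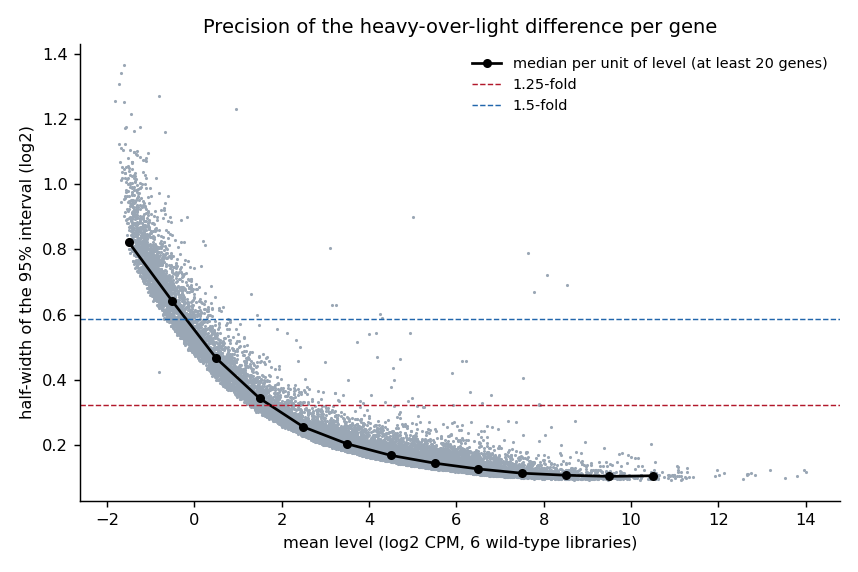
Each point is a gene of the wild-type comparison, with its mean level in log2 CPM over the 6 libraries on the x axis and the half-width of the 95% interval of the log2 fold change on the y axis; black points are medians per unit of level. The half-width shrinks with level, and 97.6% of genes with a mean of at least 5 log2 CPM had intervals inside 1.25-fold.

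Gene classes lay close to each other. Protein-coding genes, 12656 in number, had a median log2 fold change of 0.00, with 2.93% higher and 2.17% lower at an unadjusted p under 0.05. Long non-coding RNAs, 1997 in number, had a median of 0.03, with 3.86% higher and 1.75% lower. Over 4 classes of protein-coding genes by exon length, medians lay between -0.01 and 0.00.

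The libraries of one medium were about as far from each other as from those of the other medium. Wild-type libraries held 29181584 to 35589916 counts in heavy medium, against 30257291 to 40257027 counts in light medium, with TMM factors of 0.989 to 1.011. The leading log2 fold change distance, over the 500 genes that separate a pair most, was 0.273 to 0.565 for 9 pairs from different media (median 0.457), against 0.325 to 0.456 for 6 pairs from the same medium (median 0.398). The closest pair was heavy library 3 and light library 2, the deepest libraries. Medium accounted for 21.3% of the sum of squares between libraries with 1 degree of freedom, against 39.3% with 2 for the replicate number and 39.5% with 2 for the remainder. The biological coefficient of variation was 6.17%, against 9.7% in the knockout fit with line as a block.

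**Figure D5:**
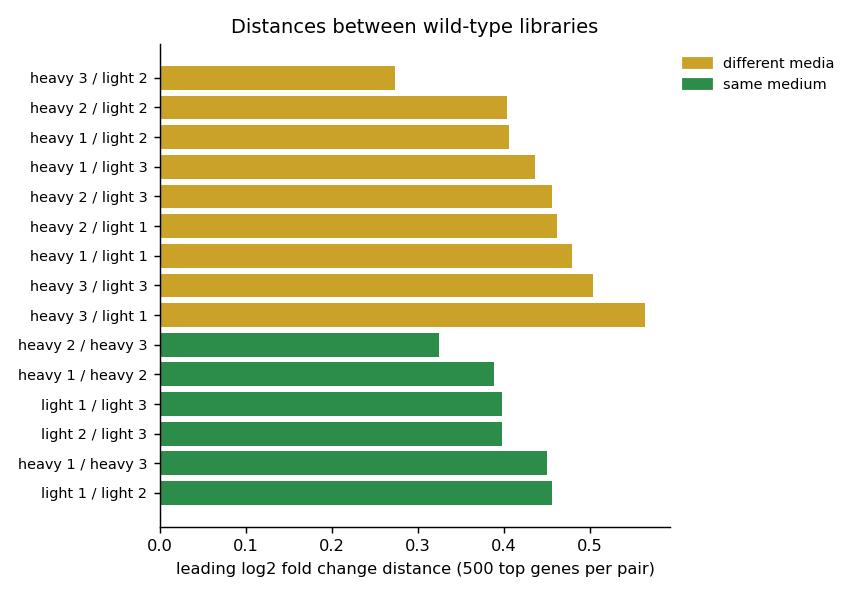
Bars give the leading log2 fold change distance of each of the 15 pairs of wild-type libraries, from different media above and from the same medium below. The ranges overlap, at 0.273 to 0.565 for pairs from different media and 0.325 to 0.456 for pairs from the same medium.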

How the data were processed

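Poly(A) RNA of wild-type SH-SY5Y cells in heavy (3 libraries) and light (3 libraries) SILAC medium was analysed, with the 6 libraries of 3 FMR1 knockout lines beside them. The authors deposited a table of unnormalised whole read counts over 59087 features, of which 30344 were at 0 in all 6 wild-type libraries. Per the labels' protocols, RNA was extracted with TRIzol and libraries were made with a TruSeq Stranded mRNA kit. The submitters' processing notes name bcl2fastq 2.19.0, STAR 2.7.0f, featureCounts of Subread 1.6.4, DESeq2 1.22.1, R 3.5.1 and the build GRCh38.p13. Not given in the sources used here are the annotation release, the strand setting and how reads with several matches were treated, so overlapping, antisense and near-identical genes are uncertain. The number of counts limits the precision of low genes, as the intervals show.

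These raw counts went into edgeR 4.0.16, run in R 4.3.3 (normalisation by TMM, filterByExpr, robust quasi-likelihood fit, Benjamini-Hochberg adjustment at 0.05 over all genes tested). Wild-type heavy and light libraries were fitted without a covariate, and the knockout libraries with line as a block. The difference between genotypes was fitted as an interaction over all 12 libraries, without line as a block. CPM were computed here from TMM-scaled library sizes; SE and 95% intervals were derived from the F statistic. The code was tested on simulated data. The libraries of a number were not shown to be paired in wild-type cells (correlation of their deviations from the group means 0.061, -0.0089 and -0.073), whereas knockout libraries of a number come from 1 line per the labels. No pair of libraries agreed within sampling noise (chi-square per gene of at least 3.55). Positions came from GENCODE release 29 by symbol, and promoters from RefSeq.

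The comparison, the 33 gene lists and 2 further lists (BMP, glucocorticoid) were chosen with earlier results of these data known, the 2 further lists after the values had been seen. Lists were therefore described by counts and medians, without a test. Named were FMR1, carriers and enzymes of arginine and lysine, ATF4 genes, the 10 genes with the smallest p in each direction and the 4 largest rises and falls (mean of at least 1 log2 CPM, clone names passed over), the 5 widest within groups (mean of at least 5 log2 CPM) and up to 3 members per list; other list members are named for their function, after their values were seen. Some list genes are not reported here. Alternatives were RLE and upper-quartile factors, DESeq2 1.42.0, limma-voom (limma 3.58.1), 2 other count filters, the replicate block, a spread shared by all 12 libraries and each library left out.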

Additional observations from a re-analysis of the deposited data

How the results depend on the processing

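For heavy against light in wild type, the count of 1 gene past the adjustment was the same with RLE factors, upper-quartile factors, limma-voom and a filter of 1 CPM in 3 libraries. It was 8 with DESeq2 (ID2, SAMD11, PLXNA2 and AC006042.3 higher; POPDC2, MYADM, TXNIP and ARC lower), 39 with no filter on low counts (32 higher, 7 lower), 0 with 1 spread shared by all 12 libraries (261 at an unadjusted p under 0.05, with edgeR) and 0 to 8 over the 6 fits that left out 1 library: 3 without heavy library 1, 8 without heavy library 3 and 0 without heavy library 2 or any light library. ID2 was among the genes called in every fit with a call. The count at an unadjusted p under 0.05, 808, was 1470 without heavy library 1 and 486 without light library 1. With the replicate number as a block, 13 genes passed (9 higher, 4 lower); the numbers are not shown to pair wild-type libraries, so this is a value only. For heavy against light in knockout lines the count was 0 in all alternatives run except without knockout line 1, where it was 1, and for the difference between genotypes it was 0 in all, replicate block included. The cause of these changes was not tested.

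Over 132 named genes and all settings, 1786 values kept direction and side of the threshold, 36 passed it newly, 5 no longer passed and 15 changed sign. The sign changes came from leaving out 1 library, over which the log2 fold change ran from -0.014 to 0.099 for FMR1, from -0.028 to 0.14 for ASNS, from -0.092 to 0.15 for DDIT3, from -0.052 to 0.22 for AASS, from -0.068 to 0.061 for ATF4, from -0.10 to 0.47 for AMH, from -0.38 to 0.092 for JUN, from -0.18 to 0.21 for MALAT1 and from -0.025 to 0.046 for FXR1. Of the list medians under the alternatives, 41 moved by more than the spread between libraries and 309 did not. Depth limits genes under 1 log2 CPM, of which 0 had an interval inside 1.25-fold.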

Other observations

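Other gene groups are described here by counts at an unadjusted p under 0.05 in wild-type cells, which do not measure direction. Some groups lay mostly below 0. These include 11 of 13 mitochondrially encoded genes (84.6%) and 19 of 27 unfolded protein response genes (70.4%), against 49.8% of all genes. Their medians were -0.04 and -0.03, and the centred medians per library overlapped between media in both groups. Heat shock genes (22 tested), cytosolic ribosomal protein genes (73) and iron genes (11) had 0 members at an unadjusted edgeR p under 0.05, against 5.1% of all genes. Among 28 p53 targets 1 was higher and 0 lower at that threshold (3.57% higher, near the 3% of all genes). It was PLK2, a kinase of the polo family, at 7.12, 6.69 and 6.44 CPM in heavy medium, against 5, 5.29 and 5.31 CPM in light medium. Among 30 adrenergic genes 2 were higher and 2 lower (6.67% each, against 3% higher and 2.1% lower over all genes). HAND1, a bHLH factor, and SLC6A2, the noradrenaline carrier, had log2 fold changes of 0.19 and 0.16, and CHGB, a granule protein, and DBH had -0.13 each. These members were named after their values were seen.

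Among the largest log2 fold changes of genes with a mean of at least 1 log2 CPM, ZNF703, a transcriptional repressor, had 2.24, 2.16 and 2.72 CPM in heavy medium, against 1.67, 1.49 and 1.45 CPM in light medium. On the other side NPAS4, an activity-induced transcription factor of neurons, had 1.56, 2.49 and 2.52 CPM in heavy medium, against 2.55, 2.83 and 4.42 CPM in light medium, without overlap. In the knockout lines NPAS4 differed by 1.05 on the log2 scale (edgeR unadjusted p = 0.338), and the test of the difference between genotypes gave an unadjusted p of 0.04 and an adjusted p of 1.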
